A study of Mus musculus with 6 samples.

Results

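The 10 marker genes of monocytes and macrophages described here were Chil3, Itgam, Ly6c2, Lyz2, Cd68, Csf1r, Adgre1, C1qa, C1qb and C1qc, chosen by symbol from a table of 13026 genes. Chil3, Itgam and Ly6c2 stand for recruited cells, and Adgre1 with the 3 C1q genes for resident macrophages. Lyz2, Cd68 and Csf1r are carried by both kinds of cell and are called the shared members. All 10 were in the table and passed the filter on low values, a mean of at least 0.5 FPKM over the libraries. FPKM is the authors' unit of expression, scaled for transcript length and library total. The libraries were of whole kidney RNA from adult male mice on a C57BL/6 J background. They came from 3 LIGHT-/- samples, labelled LIGHT knockout, and 3 wild type samples (LIGHT+/+), with no cell type or clone given for the deletion. LIGHT is a TNF family cytokine, the product of Tnfsf14, and acts through the lymphotoxin beta receptor and the herpesvirus entry mediator. Both groups had 32 min of bilateral renal ischemia and then 24 h of reperfusion, and no unoperated kidney was analysed here, so every value is of injured tissue.

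After ischemia, monocytes carrying the integrin CD11b and the surface antigen Ly6C leave the blood, enter the kidney and can turn into macrophages, while a resident network of macrophages carrying F4/80 is present beforehand. Neutrophils arrive in the same hours and share several of these markers, among them Itgam and Lyz2. Resident macrophages are a main source of C1q, the protein that starts the classical complement pathway and helps clear dying cells. A whole-kidney library measures RNA per total RNA, so fewer cells of a type and less RNA per cell cannot be told apart.

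Library totals were 299667 to 314533 FPKM in LIGHT knockout and 308876 to 318493 in wild type, and FPKM do not give the number of reads behind them. The third knockout library differed most from the rest, with a correlation to the other libraries across genes of 0.934 to 0.956, against 0.976 to 0.989 among the other 5. Proximal tubule genes, which mark kidney epithelium, summed to 4543 to 5471 FPKM over 6 genes in knockout and 4254 to 4848 in wild type. Most of each sum was Kap, at 3775, 3717 and 4114 FPKM in knockout and 4207, 4099 and 3733 in wild type, with overlap. The other 5 genes were each higher in knockout without overlap, where 7.76% of all genes tested lay higher without overlap. Tnfsf14 itself was not analysed here, and genotypes rest on the labels. The labels do not say that each library is a separate mouse, so p-values measure only the spread between these libraries, which may be technical.

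Some recruited markers had lower levels in LIGHT knockout kidneys while the resident markers overlapped between the genotypes, and no difference passed the test over all genes. Chil3 and Itgam were lower in all 3 LIGHT knockout libraries than in any wild type library, at 0.369 and 0.46 of the wild type mean. Cd68 showed the same order at 0.745 of the wild type mean, while C1qa, C1qb, C1qc, Adgre1 and Csf1r overlapped between the genotypes, with ratios of means between 1.02 and 1.13. In limma, a linear model fitted across all genes, 0 of the 10 passed an adjusted p under 0.05 over the 12836 genes tested, and 3 had an unadjusted p under 0.05. Over all genes tested 0.117% were called, 0.0234% as higher and 0.0935% as lower in knockout, and 8.08% had an unadjusted p under 0.05. The members were 5 higher and 5 lower, where 47.9% of all genes tested were higher and 52.1% lower. Groups did not overlap for 3 of the 10 members, all lower in knockout, where 8.8% of all genes tested lay lower without overlap and 7.76% higher.

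**Figure D1:**
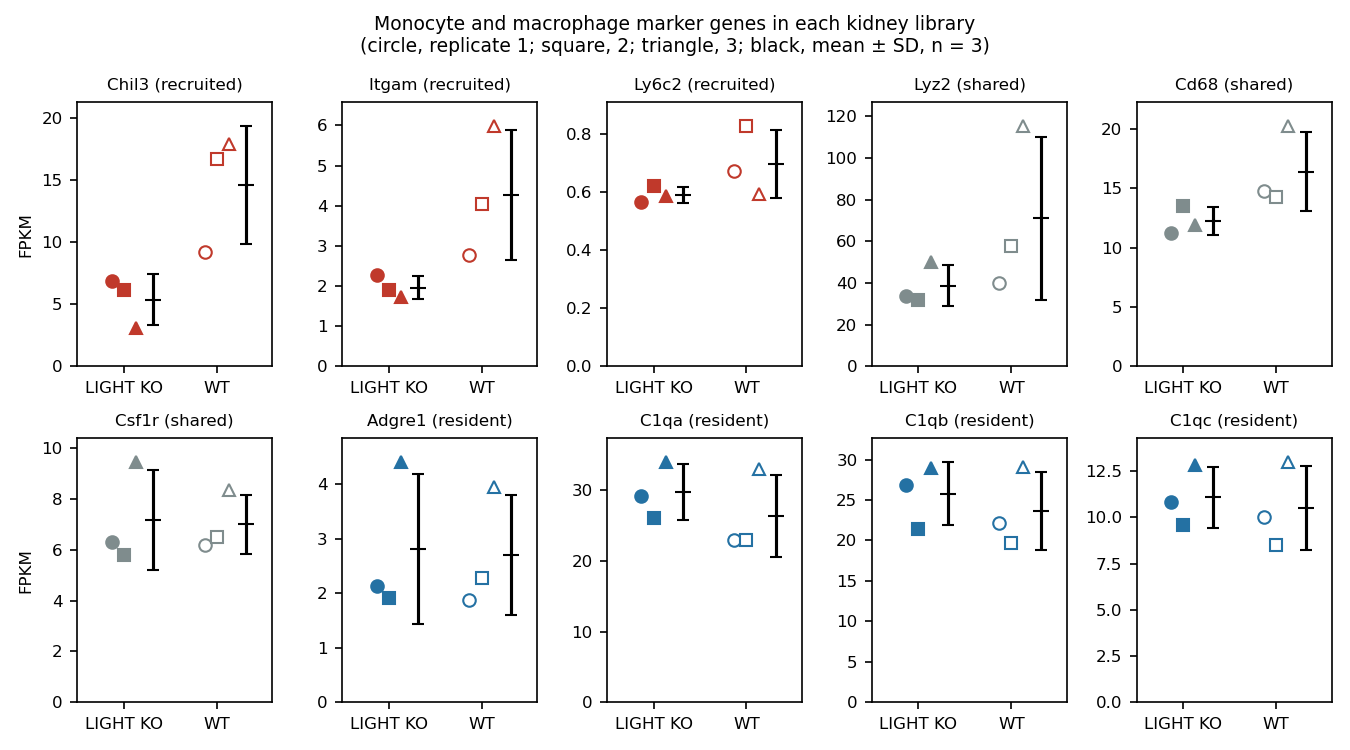
FPKM of the 10 members in each library, with filled points for LIGHT knockout on the left and open points for wild type on the right, and the mean ± SD of 3 libraries in black. All knockout points lie below all wild type points for Chil3, Itgam and Cd68, while in the resident members replicate 3 is the highest of its group in both genotypes.

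Chil3 encodes a chitinase-like secreted protein, also called Ym1, that is made by activated macrophages and by neutrophils of the mouse. It lies on chromosome 3 at 106147554 to 106167564 (ENSMUSG00000040809.10, mm10). Its level was 6.92, 6.14 and 3.08 FPKM in the LIGHT knockout libraries, against 9.18, 16.7 and 17.9 in wild type. The highest knockout value was below the lowest wild type value, and the gap between them was smaller than the spread within wild type. The means were 5.38 ± 2.03 FPKM in knockout and 14.6 ± 4.73 in wild type (SD, n = 3 each). Fold changes are given on the log2(FPKM + 1) scale, on which those of low genes come out too small. That of Chil3 was -1.29 ± 0.33 (SE), with a limma adjusted p of 0.592. An exact two-sided permutation of the 6 libraries gave p = 0.1, the smallest that 3 against 3 allows. Of the 31-base words in its transcripts, 41.5% also occur in transcripts of other genes, most of them in the neighbouring paralog Chil4, so reads could be split between copies. Chil4 was not analysed here.

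Itgam encodes CD11b, the alpha chain of an adhesion receptor of monocytes, macrophages and neutrophils that binds ICAM-1 and complement fragments. It lies on chromosome 7 at 128062640 to 128118491 (ENSMUSG00000030786.18). Knockout libraries had 2.27, 1.90 and 1.72 FPKM, against 2.78, 4.05 and 5.97 in wild type. The knockout values lay close together and the wild type values were spread more widely. The means were 1.96 ± 0.284 and 4.27 ± 1.61 FPKM in knockout and wild type (SD, n = 3 each), and the log2 fold change was -0.79 ± 0.22 (SE, limma adjusted p = 0.592). GENCODE places the longer locus Gm49368 over nearly all of Itgam on the same strand, and it shares 67.2% of the Itgam 31-base words. The sources used here do not say how reads were divided between them.

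Itgb2 encodes the beta chain that pairs with CD11b, and it was chosen for comparison as that partner. Its level was 4.61, 4.05 and 4.21 FPKM in knockout, against 3.96, 4.16 and 7.93 in wild type, so the groups overlapped. The ratio of Itgam to Itgb2 was 0.493, 0.469 and 0.408 in the knockout libraries and 0.703, 0.975 and 0.753 in the wild type libraries, without overlap. The ratios in this account were chosen after the values were seen and are a description with no test.

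Ly6c2 encodes the Ly6C antigen of inflammatory monocytes and was the lowest of the members. It stood at 0.567, 0.621 and 0.586 FPKM in knockout, against 0.672, 0.826 and 0.595 in wild type. The values overlapped, and the log2 fold change was -0.09 ± 0.11 (SE, limma adjusted p = 0.796). Ly6c1, its near copy 59.33 kb away, is expressed by endothelium and stood far higher, at 34.5, 35.9 and 31.6 FPKM in knockout and 36.6, 46.5 and 43.9 in wild type, without overlap (limma adjusted p = 0.592). The ratio of Ly6c2 to Ly6c1 lay between 0.0136 and 0.0186 in all 6 libraries. The first 150 coding bases of both genes are shown because they differ so little, with the differing positions in capitals. They are from GENCODE M21 on the minus strand of chromosome 15, where Ly6c2 spans chr15:75108158-75111970 and Ly6c1 chr15:75044018-75048830.
Ly6c2: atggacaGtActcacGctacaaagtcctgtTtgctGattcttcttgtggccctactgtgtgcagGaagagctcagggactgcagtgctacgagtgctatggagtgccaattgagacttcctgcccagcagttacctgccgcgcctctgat
Ly6c1: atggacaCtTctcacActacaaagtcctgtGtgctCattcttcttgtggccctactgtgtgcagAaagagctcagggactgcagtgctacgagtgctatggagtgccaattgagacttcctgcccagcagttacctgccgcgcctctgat
Over the 393 coding bases 97.7% are identical, with 9 differences and a longest identical run of 188 bases. A read inside such a run cannot be assigned to either gene, so the level of Ly6c2 is uncertain. Summed over both genes the level was 34.6 ± 2.23 FPKM in knockout and 43.0 ± 5.19 in wild type (SD, n = 3 each), and its log2 fold change was -0.30 (limma adjusted p = 0.592).

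Lyz2, the first of the shared members, encodes lysozyme M, a bactericidal enzyme of macrophages and neutrophils, and was the most abundant of the 10. It lies on chromosome 10 at 117277331 to 117282321. Its values were 33.9, 32.0 and 50.01 FPKM in LIGHT knockout, against 40.2, 58.0 and 115 in wild type. The groups overlapped, and wild type library 3 stood far above the other 5. The log2 fold change was -0.75 ± 0.38 (SE) with a limma adjusted p of 0.598, and it was -0.34 without wild type library 3. Lyz2 shares 32.8% of its 31-base words with its paralog Lyz1, which was not analysed here.

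Cd68 encodes macrosialin, a lysosomal membrane glycoprotein of macrophages, on chromosome 11 at 69664213 to 69666153. Knockout libraries had 11.2, 13.5 and 11.9 FPKM, against 14.8, 14.2 and 20.2 in wild type. The groups were separate but close, with 13.5 as the highest knockout and 14.2 as the lowest wild type value. The means were 12.2 ± 1.17 and 16.4 ± 3.29 FPKM in knockout and wild type (SD, n = 3 each), the log2 fold change was -0.38 ± 0.15 (SE) and the limma adjusted p was 0.592. The fold change was -0.23 without wild type library 3.

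Csf1r encodes the receptor for the growth factors CSF1 and IL-34, on which macrophages depend for survival. It stood at 6.31, 5.78 and 9.42 FPKM in knockout, against 6.18, 6.49 and 8.33 in wild type, with replicate 3 the highest of its group in both. The groups overlapped, and the log2 fold change was 0.01 ± 0.19 (SE, limma adjusted p = 0.985). The value was -0.17 without knockout library 3. Hmgxb3 on the other strand overlaps Csf1r by 873 bases, and use of strand in counting is not known.

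Among the resident members, C1qa, C1qb and C1qc encode the 3 chains that assemble into the C1q molecule. They lie side by side within 18.67 kb of chromosome 4 on the minus strand. C1qa had 29.1, 26.0 and 33.9 FPKM in knockout, against 23.0, 23.0 and 33.0 in wild type. C1qb had 26.9, 21.5 and 29.0 FPKM in knockout and 22.2, 19.7 and 29.1 in wild type. C1qc was lower than both throughout, at 10.8, 9.58 and 12.9 FPKM in knockout and 10.01, 8.52 and 12.96 in wild type. The groups overlapped for each chain, and library 3 was the highest of its group for all of them in both genotypes. Their log2 fold changes were 0.18 ± 0.17, 0.13 ± 0.17 and 0.08 ± 0.17 (SE), with limma adjusted p of 0.739, 0.823 and 0.884. Summed, the chains came to 66.5 ± 9.33 FPKM in knockout and 60.5 ± 12.8 in wild type (SD, n = 3 each).

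The C1q chains kept close proportions. The ratio of C1qa to C1qb lay between 1.04 and 1.21 over the 6 libraries, and that of C1qc to C1qb between 0.402 and 0.451. No 31-base word of the 3 genes occurs in transcripts of another gene.

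Adgre1 encodes F4/80, the adhesion receptor by which mouse macrophages are commonly stained. It had 2.13, 1.92 and 4.40 FPKM in knockout, against 1.88, 2.29 and 3.94 in wild type. Library 3 was again far above the other 2 of its group in each genotype. The groups overlapped, with means of 2.82 ± 1.37 and 2.70 ± 1.09 FPKM in knockout and wild type (SD, n = 3 each), and the log2 fold change was 0.03 ± 0.30 (SE, limma adjusted p = 0.982). The value was -0.25 without knockout library 3. Adgre1 lies on chromosome 17 at 57358691 to 57483527, which begins 164.5 kb from the end of Tnfsf14, the gene altered in the knockout. Of 33 genes tested within 1 Mb of Tnfsf14, 20 were higher and 13 lower in knockout and the median log2 fold change was 0.02. Of them, 0 passed a limma adjusted p under 0.05 while 3 had an unadjusted p under 0.05, against 8.08% of all genes tested. Whether the altered locus bears on Adgre1 was not tested.

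**Figure D2:**
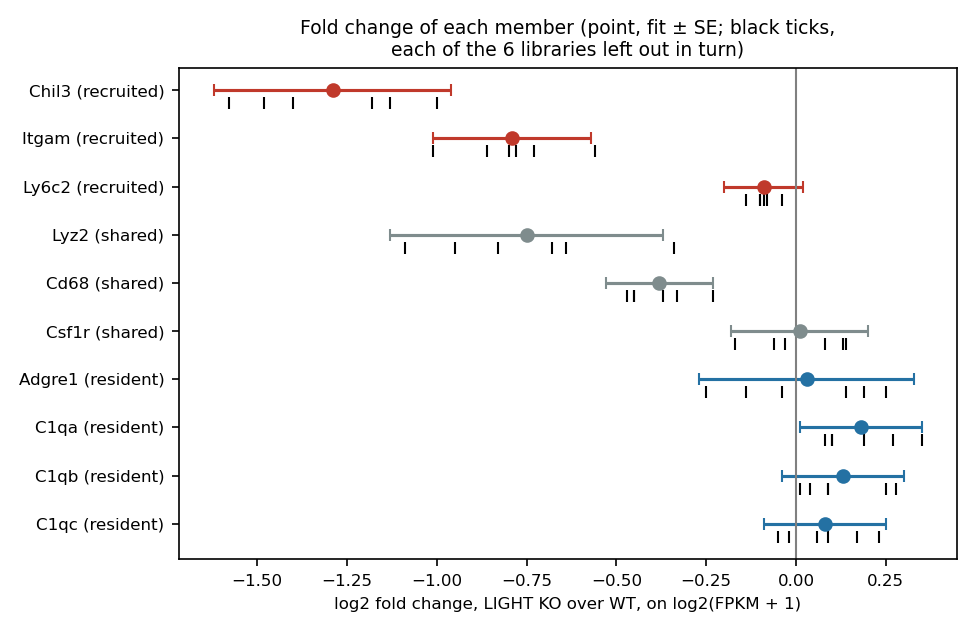
Log2 fold change of each member, LIGHT knockout over wild type, on the log2(FPKM + 1) scale, with the SE as a bar and black ticks for the value with each of the 6 libraries left out in turn. Chil3, Itgam, Lyz2 and Cd68 stay below 0 throughout, while the ticks of Csf1r, Adgre1 and C1qc fall on both sides of 0.

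Promoters are shown for C1qb and C1qc, which are neighbours and kept their proportions, and for Chil3 and Itgam, the recruited members lowest in knockout relative to wild type. They are RefSeq windows of GRCm38.p6 from 250 bases before to 50 after a start site, in the direction of the gene. Capitals mark AGGAAGT or its reverse complement ACTTCCT, a form of the site bound by the myeloid factor PU.1 and other ETS factors. No other motif was searched.
C1qb, chr4:136886151-136886450, minus strand: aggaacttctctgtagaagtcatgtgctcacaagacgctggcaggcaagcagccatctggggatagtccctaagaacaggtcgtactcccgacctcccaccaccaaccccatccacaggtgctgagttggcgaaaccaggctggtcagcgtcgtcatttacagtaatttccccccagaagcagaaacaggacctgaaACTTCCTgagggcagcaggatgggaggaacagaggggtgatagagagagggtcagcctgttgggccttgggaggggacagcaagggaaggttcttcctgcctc
C1qc, chr4:136892865-136893164, minus strand: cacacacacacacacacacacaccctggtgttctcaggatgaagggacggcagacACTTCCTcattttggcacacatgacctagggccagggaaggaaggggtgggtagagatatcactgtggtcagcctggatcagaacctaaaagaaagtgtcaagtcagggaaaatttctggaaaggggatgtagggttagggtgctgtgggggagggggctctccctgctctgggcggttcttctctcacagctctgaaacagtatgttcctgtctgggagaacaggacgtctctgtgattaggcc
Chil3, chr3:106167515-106167814, minus strand: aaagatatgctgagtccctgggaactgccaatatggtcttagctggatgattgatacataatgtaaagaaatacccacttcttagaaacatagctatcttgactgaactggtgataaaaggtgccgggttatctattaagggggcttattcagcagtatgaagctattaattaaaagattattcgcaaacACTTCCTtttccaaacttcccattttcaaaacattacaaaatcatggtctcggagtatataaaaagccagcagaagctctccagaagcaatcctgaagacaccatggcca
Itgam, chr7:128062390-128062689, plus strand: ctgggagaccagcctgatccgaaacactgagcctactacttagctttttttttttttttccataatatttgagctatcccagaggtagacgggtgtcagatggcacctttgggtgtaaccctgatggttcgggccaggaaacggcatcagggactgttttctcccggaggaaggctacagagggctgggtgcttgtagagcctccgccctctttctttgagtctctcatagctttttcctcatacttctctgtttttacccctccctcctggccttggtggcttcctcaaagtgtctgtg
The motif begins 53 bases before the start site in C1qb, 195 before it in C1qc and 60 before it in Chil3, and these letters are not in the Itgam window. Of the 7 members with a window used here, 5 hold the motif on either strand, the others being Ly6c2 and Lyz2. Counted by window, 9.35% of all 32851 and 8.73% of those of genes tested hold it. A gene with more than 1 window, as Ly6c2 has, has more chances to match, so the 2 kinds of share are not alike. A match of letters is a description and not a measured site. Spi1, which encodes PU.1, stood at 2.19, 1.31 and 2.40 FPKM in knockout, against 2.45, 1.88 and 3.73 in wild type, with overlapping groups.

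Taken class by class, the recruited members had a median log2 fold change of -0.79, the shared members -0.38 and the resident members 0.10, beside -0.01 over all genes tested. The shared median was -0.23 without wild type library 3. The resident median was -0.02 without wild type library 2, 0.01 without knockout library 3, 0.22 without knockout library 2 and 0.27 without wild type library 3. The mean log2(FPKM + 1) of Chil3, Itgam and Ly6c2 was 1.78, 1.69 and 1.38 in the LIGHT knockout libraries and 2.00, 2.45 and 2.57 in the wild type libraries. For Adgre1 and the C1q genes it was 3.73, 3.55 and 4.06 in knockout and 3.53, 3.48 and 4.03 in wild type. The recruited class mean was thus separate, with the knockout libraries below, while the resident class mean overlapped. Of the recruited members, Chil3 and Itgam were separate and Ly6c2 overlapped. Knockout library 3 was the lowest of all 6 for the recruited class and the highest of all 6 for the resident class.

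Within each library the recruited mean minus the resident mean was -1.95, -1.86 and -2.68 in knockout, against -1.52, -1.03 and -1.45 in wild type, on the log2(FPKM + 1) scale. The groups did not overlap, and their means differed by -0.83. With 1 library left out, that difference ran from -0.98 without knockout library 2 to -0.57 without knockout library 3. In a choice made after seeing the data, the difference was -1.15 with Ly6c2 left out of the recruited class, and -0.85 with Adgre1 left out of the resident class. No test was made of these class values, since the members were chosen with results of these data known.

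**Figure D3:**
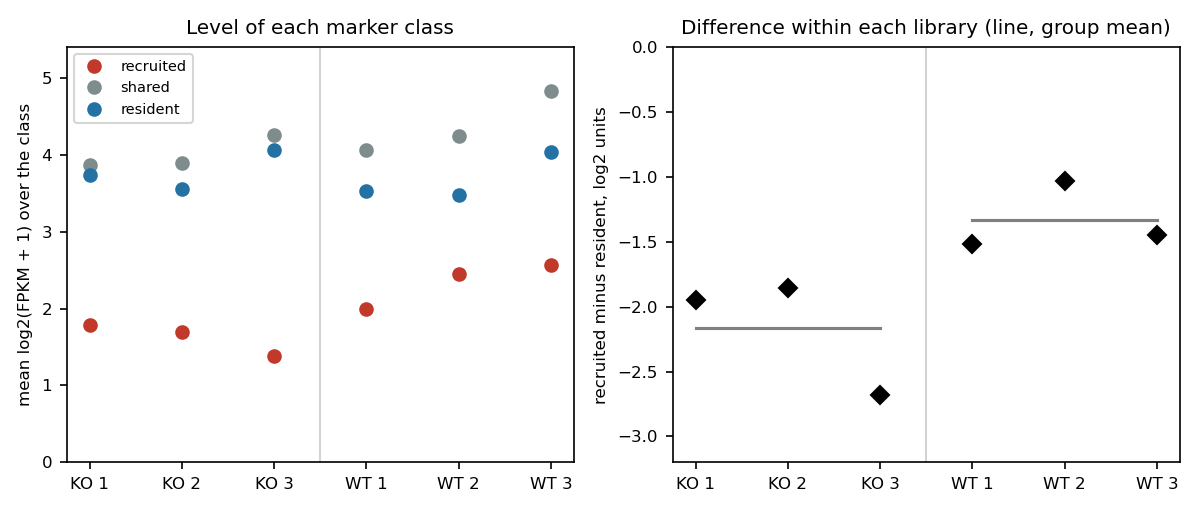
Left, mean log2(FPKM + 1) of the recruited, shared and resident members in each library, LIGHT knockout before wild type. Right, the recruited mean minus the resident mean in each library, which is between -2.68 and -1.86 in knockout and between -1.52 and -1.03 in wild type, with the group means as lines.

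Several single pairs of genes gave the same order, and others did not. Itgam relative to Adgre1 was 1.07, 0.989 and 0.391 in knockout, against 1.48, 1.77 and 1.52 in wild type, as a ratio of FPKM. Chil3 relative to C1qa was 0.238, 0.236 and 0.0908 in knockout, against 0.399, 0.725 and 0.543 in wild type. Cd68 relative to C1qa was 0.384, 0.518 and 0.352 in knockout, against 0.642, 0.619 and 0.612 in wild type. Lyz2 relative to Csf1r was 5.38, 5.54 and 5.31 in knockout, against 6.51, 8.94 and 13.8 in wild type. In each of these 4 ratios the groups were separate. Itgam, Chil3 and Cd68 were each separate before division, so their ratios add little to that. Cd68 relative to Csf1r was 1.77, 2.34 and 1.27 in knockout, against 2.39, 2.19 and 2.42 in wild type, so those groups overlapped.

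Neutrophil markers lay in the same direction as the recruited members. Of 12 genes listed, 8 were tested and all 8 were lower in LIGHT knockout, where 52.1% of all genes tested were lower. Of the 8, 0 passed the limma threshold and 2 had an unadjusted p under 0.05, against 8.08% of all genes tested. Groups did not overlap for 3 of the 8, all lower in knockout, where 8.8% of all genes tested lay lower without overlap. The median log2 fold change was -0.60, and -0.33 without knockout library 3. With libraries weighted by quality, 2 of the 8 were higher in knockout and the median was -0.13. Summed over the 8, they came to 47.0, 68.9 and 21.2 FPKM in knockout, against 65.6, 80.3 and 100.2 in wild type. The other 4 neutrophil genes, Ly6g, Camp, Ngp and Mmp8, were not analysed here. Set against S100a9, which neutrophils hold in large amounts, Itgam was 0.0956, 0.0549 and 0.134 in knockout and 0.0787, 0.101 and 0.125 in wild type. Chil3 against S100a9 was 0.291, 0.178 and 0.239 in knockout and 0.260, 0.415 and 0.376 in wild type. Both ratios overlapped between the genotypes. S100a9 was itself lower in knockout without overlap, at 23.8, 34.6 and 12.9 FPKM against 35.3, 40.2 and 47.65 in wild type. Division by it therefore reduces a difference in the same direction. The part of neutrophils in the values of Itgam, Chil3 and Lyz2 was not tested.

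Levels of markers of tubule injury and of intact proximal tubule are given beside these. Of 6 injury genes, all 6 were lower in knockout, where 52.1% of all genes tested were lower. Their median log2 fold change was -1.02. It was -0.14 without knockout library 3 and -0.27 with libraries weighted by quality, with 1 of the 6 higher in each case. Their sums were 1306, 1085 and 299.5 FPKM in knockout, against 1645, 1504 and 1643 in wild type. Of 6 proximal tubule genes, 5 were higher in knockout, where 47.9% of all genes tested were higher. The median over the 6 was 0.65 (0.42 with libraries weighted by quality). Each of those 5 had an unadjusted p under 0.05, against 8.08% of all genes tested. None of these 12 passed the limma threshold. As a description over the 6 libraries, Chil3 correlated at 0.86 with Havcr1, which encodes the injury marker KIM-1, and at 0.895 with S100a9, places 622 and 365 among 11817 genes. For Itgam these values were 0.691 and 0.756, places 1583 and 1060. The part of tissue injury in the level of Chil3 was not tested.

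**Figure D4:**
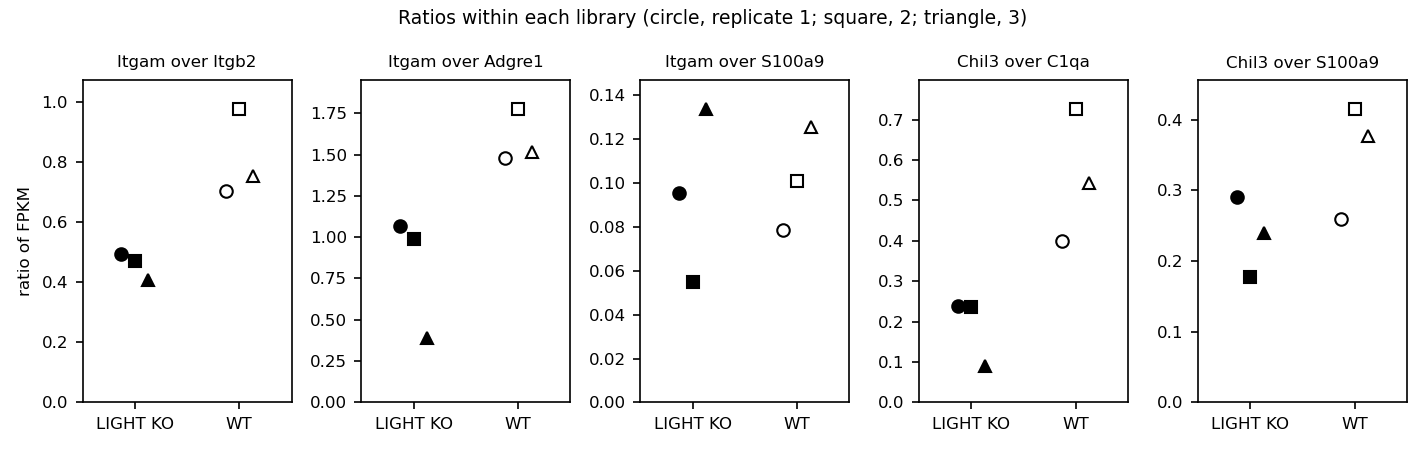
Ratios of FPKM within each library, filled points for LIGHT knockout on the left and open points for wild type on the right, with the replicate number as shape. Itgam over Itgb2, Itgam over Adgre1 and Chil3 over C1qa separate the genotypes, while Itgam over S100a9 and Chil3 over S100a9 overlap.

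**Figure D5:**
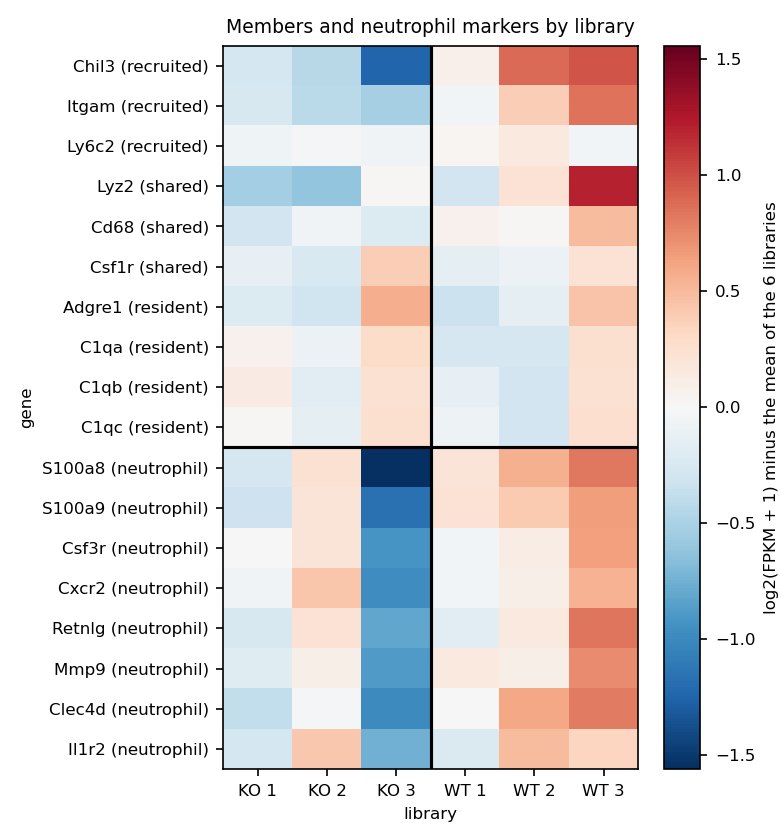
Log2(FPKM + 1) of the 10 members and the 8 neutrophil genes tested, minus the mean of the 6 libraries for each gene, with LIGHT knockout libraries left of the line. Knockout library 3 is low for Chil3 and for all neutrophil genes and high for Csf1r, Adgre1 and the C1q genes, and wild type library 3 is above the mean in all rows but Ly6c2.

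Other cell types were represented unevenly. The list of dendritic cell genes had 2 of 9 tested and that of T and NK cells 1 of 10, so little can be said of those cells at this level. Endothelial genes, 9 of 9 tested, had 4 higher and 5 lower in knockout with a median log2 fold change of -0.01, summing to 186 to 224 FPKM in knockout and 193 to 239 in wild type. Red cell and platelet genes, which would mark remaining blood, summed to 719 to 1109 FPKM over 8 genes in knockout and 794 to 864 in wild type, nearly all of it globin. The platelet chemokine gene Ppbp, named after its values were seen, was 1.47, 0.989 and 1.05 FPKM in knockout, against 0.751, 5.35 and 5.45 in wild type. The groups overlapped (limma adjusted p = 0.609), with 2 wild type libraries far above the rest. Jchain, a plasma cell gene for the chain that joins IgA and IgM units, was the 1 gene on the lists beyond the members that passed (limma adjusted p = 0.011), at 8.22, 7.16 and 7.44 FPKM in knockout and 0.884, 0.284 and 0.784 in wild type. The groups were far apart, but it no longer passed without knockout library 2, wild type library 1 or wild type library 3, nor with the replicate number as a block. In each of those settings 0 genes passed over the whole table.

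Genes carried by most myeloid cells were tested as a wider list. Of 29 tested, 27 were lower and 2 higher in LIGHT knockout, with a median log2 fold change of -0.21, where 52.1% of all genes tested were lower. None passed the limma threshold and 1 had an unadjusted p under 0.05, against 0.117% and 8.08% of all genes tested. Groups did not overlap for 2 of the 29, both lower in knockout, where 8.8% of all genes tested lay lower without overlap. Without wild type library 3, 12 of the 29 were higher in knockout and the median was -0.07, and without knockout library 2, 10 were higher. The list summed to 157, 131 and 155 FPKM in knockout, against 165, 161 and 245 in wild type, so 1 wild type library stood above the rest. Ptprc, which encodes the leukocyte antigen CD45, was 1.08, 0.814 and 1.32 FPKM in knockout and 1.03, 0.962 and 1.63 in wild type, with overlapping groups (limma adjusted p = 0.865).

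Within that list Tyrobp, an adaptor of activating myeloid receptors, had 17.2, 15.3 and 18.3 FPKM in knockout, against 20.8, 22.0 and 39.3 in wild type, without overlap (limma adjusted p = 0.592). C5ar1, the receptor for the complement fragment C5a, had 3.69, 3.12 and 2.75 FPKM in knockout and 3.82, 4.09 and 7.88 in wild type, also without overlap (limma adjusted p = 0.595). Ms4a6c averaged 2.76 ± 0.434 FPKM in knockout and 4.37 ± 1.45 in wild type (SD, n = 3 each). Cd53, a leukocyte tetraspanin, averaged 5.09 ± 0.916 and 7.72 ± 2.55 FPKM in knockout and wild type. Those last 2 overlapped between the genotypes.

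For further genes of recruited monocytes the genotypes overlapped throughout. Of 9 tested, 7 were lower and 2 higher in knockout, and the median log2 fold change was -0.06. Of these, 0 passed the limma threshold or had an unadjusted p under 0.05. Without knockout library 1 or wild type library 3, 5 of the 9 were higher and the median was 0.01. The median was -0.15 without knockout library 3 and -0.25 without wild type library 1. Ccr2, the chemokine receptor by which monocytes leave the bone marrow, stood at 1.02, 1.14 and 1.80 FPKM in knockout, against 0.889, 1.75 and 2.19 in wild type. Plac8 was 26.3, 35.1 and 15.2 FPKM in knockout and 17.0, 17.1 and 25.0 in wild type. F13a1, a transglutaminase chain made by monocytes, averaged 1.21 ± 0.695 FPKM in knockout and 2.03 ± 1.20 in wild type (SD, n = 3 each). Thbs1, a matrix glycoprotein, averaged 33.7 ± 5.12 and 44.1 ± 17.3 FPKM in knockout and wild type. Vcan, a matrix proteoglycan, was 0.475, 0.508 and 5.66 FPKM in knockout and 0.368, 0.450 and 1.01 in wild type, so knockout library 3 held its high value. The groups overlapped for all 5.

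Further genes of tissue macrophages had 6 of 9 higher and 3 lower in knockout, and the median log2 fold change was 0.12. Of these, 0 passed the limma threshold or had an unadjusted p under 0.05. Without knockout library 3 the list had 4 of 8 tested higher and a median of -0.06. Mertk, a receptor kinase for engulfing dying cells, was 10.5, 13.3 and 18.7 FPKM in knockout, against 10.5, 10.4 and 8.94 in wild type. The groups met at 10.5 without overlap. Mertk was the 1 separate gene of the 9, where 7.76% of all genes tested lay higher without overlap. Pf4, a chemokine of platelets that some macrophages also make, averaged 5.88 ± 1.13 FPKM in knockout and 9.79 ± 5.397 in wild type (SD, n = 3 each). Maf, a transcription factor of macrophages that kidney epithelium also uses, averaged 35.9 ± 10.01 FPKM in knockout and 28.8 ± 3.28 in wild type (SD, n = 3 each). Cx3cr1, which encodes the fractalkine receptor, was 2.48, 2.29 and 3.55 FPKM in knockout and 2.95, 1.41 and 2.90 in wild type.

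The direction of ligands and receptors that draw or sustain these cells depended on single libraries. Of 15 tested, 11 were lower and 4 higher in LIGHT knockout with a median log2 fold change of -0.11, yet 10 were higher without wild type library 3 and 7 of 14 without knockout library 3. With libraries weighted by quality, 8 were higher and the median was 0.11. None passed the limma threshold or had an unadjusted p under 0.05. Csf1, the growth factor of the macrophage lineage, was 14.1, 14.9 and 5.46 FPKM in knockout, against 10.6, 12.2 and 20.2 in wild type. Il34, the other ligand of Csf1r and made by tubules, was 47.3, 31.9 and 14.2 FPKM in knockout and 34.9, 27.5 and 28.7 in wild type. For both ligands knockout library 3 was the lowest of the 6, and it had the highest Csf1r. Ccl2, the main ligand of Ccr2, was 4.72, 4.41 and 6.56 FPKM in knockout and 5.25, 3.65 and 12.99 in wild type, and Ccl12, another, averaged 6.93 ± 1.27 and 4.78 ± 2.51 (SD, n = 3 each). Csf2ra, a chain of the GM-CSF receptor, was 5.44, 5.59 and 5.49 FPKM in knockout, against 6.57, 5.99 and 8.67 in wild type, without overlap (limma adjusted p = 0.595). Csf2ra was the 1 separate gene of the 15, where 8.8% of all genes tested lay lower without overlap. Ccr1, a receptor of inflammatory chemokines, averaged 2.08 ± 0.825 and 3.68 ± 1.30 FPKM in knockout and wild type.

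C1q acts with the proteases C1r and C1s and leads to the cleavage of C4, C2 and then C3, while the product of Serping1 inhibits it. Genes of these partners were higher in knockout in 6 of 6 cases, where 47.9% of all genes tested were higher. Their median log2 fold change was 0.47 against 0.10 for the resident members. Of the 6, 0 passed the limma threshold and 2 had an unadjusted p under 0.05, against 0.117% and 8.08% of all genes tested. Groups did not overlap for 3 of the 6, where 7.76% of all genes tested lay higher without overlap. C2 was 11.2, 11.4 and 10.6 FPKM in knockout, against 9.01, 8.11 and 6.55 in wild type (limma adjusted p = 0.592). C4b was 3.29, 4.15 and 5.36 FPKM in knockout, against 2.80, 1.12 and 1.33 in wild type, and C1ra was 6.20, 6.64 and 8.54 against 6.06, 4.47 and 5.52. C3, the next component, averaged 45.3 ± 17.9 FPKM in knockout and 27.0 ± 9.07 in wild type (SD, n = 3 each), with overlap. Without knockout library 3 the list had 5 of 6 higher and a median of 0.36.

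Levels per length put the members in the order Lyz2, C1qa, C1qb, Cd68, C1qc, Chil3, Csf1r, Itgam, Adgre1 and Ly6c2, with means over the 6 libraries of 54.9, 28.0, 24.7, 14.3, 10.8, 9.99, 7.08, 3.12, 2.76 and 0.645 FPKM. Lyz2 was the highest, C1qa the second and C1qb the third in all 6 libraries. The steps from Csf1r to Itgam and from Adgre1 to Ly6c2 also held in all 6 libraries, while Cd68 was above C1qc in 5, C1qc above Chil3 in 4, Chil3 above Csf1r in 5 and Itgam above Adgre1 in 4. Taken over all libraries, the ranges of neighbours overlapped at every step except between Adgre1 and Ly6c2. Chil3 varied most in this order, between place 4 and place 8, with values from 3.08 to 17.9 FPKM. Among genes tested, Lyz2 lay above 92.8% by mean level and Ly6c2 above 2.62%.

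The genes whose pattern over the 6 libraries was most like that of a member were found by Pearson r of log2(FPKM + 1) among 11817 others, as a description. For Adgre1 they were Arhgef6, Csf1r, Neurl1b, Disp1 and Gm28051, with r from 0.984 to 0.997, so that Csf1r was the second most alike of all. For C1qa they were Rita1, Capn1, Cramp1l, Reep5 and Il3ra, with r from 0.973 to 0.986, and C1qb and C1qc took places 23 and 29. For Chil3 they were Cpsf2, Itgb1, Actr2, Ppp2ca and Paqr5, with r from 0.993 to 0.998, and Itgam took place 168. For Itgam they were Man1a2, Crk, Emp2, Galnt10 and Sike1, with r from 0.974 to 0.985, and Chil3 took place 86. With 6 libraries, of which knockout library 3 stands apart, a high r is easily reached. For Chil3, r was still 0.932 at place 168, while for C1qa it was 0.944 at place 23.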

How the data were processed

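RNA of whole kidney was measured in 6 libraries, 3 per genotype, grouped and numbered by the sample titles. The authors deposited FPKM per gene, 13026 genes in 1 table identical to the 6 library files, with the higher group mean at least 0.50043 FPKM in every row. The submitters' processing notes list FastQC, HISAT2, StringTie and mm10 without versions, and use of strand and annotation are not given in the sources used here. Depth is unknown, so no count model or counting interval was used.

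The 12836 genes whose mean reached 0.5 FPKM were tested (190 were removed) on log2(FPKM + 1) in limma 3.58.1 under R 4.3.3, with a mean-variance trend, two-sided, with Benjamini-Hochberg adjustment over all of them at 0.05. Exact permutations of 3 against 3 cannot go below p = 0.1. The fit was tested on simulated data with 200 changed genes in 10 runs. Members and lists were chosen with earlier results of these data known, and so was the rule for named genes: all members, fixed partners, the 4 smallest unadjusted p of 5 wider lists, any called gene of another list, and the 5 most alike patterns. Spi1, S100a9, Havcr1 and Ppbp are outside it, picked once their values were known, and 1 gene that it names is not reported here. Positions and 31-base words are from GENCODE M21, with identifiers matched after removing versions. Alternatives were other pseudocounts, filters, scalings and variance models, a replicate block, leaving out each library, and summed copies.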

Additional observations from a re-analysis of the deposited data

How the results depend on the processing

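No member passed the limma threshold under any of the 19 alternatives. Over 180 member values the adjusted p was 0.0895 at the lowest, for Chil3 with library quality weights, where its range over alternatives was 0.0895 to 0.845. Chil3 (-1.58 to -1.0), Itgam (-1.02 to -0.56), Lyz2 (-1.09 to -0.34), Cd68 (-0.47 to -0.20), Ly6c2 (-0.20 to -0.04), C1qa (0.08 to 0.35) and C1qb (0.01 to 0.28) kept their direction on the log2 scale in all alternatives that gave a value. Summed with Ly6c1, which makes up most of that sum, Ly6c2 gave -0.30. Ly6c2 gave none with a minimum mean of 1 FPKM. Lyz1 and Chil4 were not analysed here, so only Ly6c2 was summed with its copy.

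The direction turned for members whose fold change was near 0, and the cause was not tested. With library quality weights Csf1r was -0.14 and Adgre1 -0.16. With 1 library left out, Csf1r ranged from -0.17 to 0.14, Adgre1 from -0.25 to 0.25 and C1qc from -0.05 to 0.23. Csf1r and Adgre1 turned without knockout library 3 (-0.17 and -0.25), wild type library 1 (-0.06 and -0.14) or wild type library 2 (-0.03 and -0.04), and C1qc without knockout library 3 (-0.02) or wild type library 2 (-0.05).

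The recruited median ranged from -1.04 to -0.56 and the recruited minus resident difference between the genotypes from -1.15 to -0.57, while the shared median ranged from -0.47 to -0.20 (-0.20 with library quality weights) and the resident median from -0.02 to 0.27. Genes called over the whole table were 15, and 52 with library quality weights, 0 with the replicate block, and 0 to 11 with 1 library left out. Over all genes tested, the replicate numbers were not found to pair the libraries. Deviations of same-numbered libraries correlated at 0.146, -0.133 and -0.019, and not every library correlated best with its own number. For Lyz2, Csf1r and the resident members, though, replicate 3 was the highest of its group in both genotypes. With the block the limma adjusted p of Chil3 and of Itgam was 0.656, and their SE went from 0.33 to 0.36 and from 0.22 to 0.24. The SE of Adgre1 went from 0.30 to 0.12, of Lyz2 from 0.38 to 0.20 and of Csf1r from 0.19 to 0.11. For C1qa, C1qb and C1qc it went from 0.17 to 0.11, 0.10 and 0.10. For Ly6c2 and Cd68 it stayed at 0.11 and 0.15. Whether the numbers pair the libraries for these members was not tested. Depth is unknown, so the counting error of low members such as Ly6c2 and Itgam could not be given.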
